A study of Homo sapiens with 4 samples.

Results

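The collagen genes were described here by their chromatin marks in MHCC97L cells, an established human hepatocellular carcinoma line. Members were all protein-coding genes whose symbol is COL, a number, A and a number, and 44 of the 19974 protein-coding genes on chromosomes 1 to 22 and X met this rule. All libraries came from wild-type, untreated MHCC97L cells grown in medium with fetal bovine serum. Sequencing of immunoprecipitated chromatin (ChIP-seq) used antibodies against trimethylated lysine 4 (H3K4me3), acetylated lysine 27 (H3K27ac) and monomethylated lysine 4 (H3K4me1) of histone H3. Each mark had 1 library, and an input library, not analysed here, makes 4 samples. With no replicates no test was possible, and every count below describes these libraries.

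Collagens are secreted or membrane-bound proteins whose chains wind around each other in a triple helix. The fibrillar collagens form the cable-like fibrils of bone, skin, cartilage and scar, and type IV collagen forms the sheet-like network of basement membranes. The FACIT members (fibril-associated collagens with interrupted triple helices) sit on the surface of fibrils, and the transmembrane members are anchored in the cell membrane. In liver, stellate cells and fibroblasts are the main makers of fibrillar collagen, while hepatocytes are known to make type XVIII collagen. H3K4me3 marks promoters, H3K27ac marks active promoters and enhancers, and H3K4me1 marks enhancers and the flanks of promoters.

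The deposited lists give peak summits 1 bp wide, each with a score that is the −log10 of a p-value or q-value and is read only within its own list. On the chromosomes used they held 46078 H3K4me3, 70028 H3K27ac and 86366 H3K4me1 summits, with median scores of 8.23, 8.40 and 4.58. Read depth is unknown. A gene was said to carry a mark at a boundary when a summit lay within 1000 bp of its start or end, and in the gene when a summit lay between the boundaries or within 1000 bp of them. Among hepatocyte marker genes, HNF4A and TF, whose boundary window also takes in TOPBP1, had both promoter marks, H3K4me3 and H3K27ac, at a shared boundary, and ALB, APOB and TTR had no H3K4me3 or H3K27ac summit in the gene. APOA1 and ASGR1 had H3K4me3 of 1.8 and 3.06 at a boundary without H3K27ac, and SERPINA1 and CYP3A4 had H3K27ac of up to 3.67 and 6.88 in the gene without H3K4me3. Of 5 epithelial markers KRT8 and KRT18 had both marks, but these genes overlap at their ends and the same summits were counted for both. CDH1 had H3K4me3 of 17.7 at a boundary and H3K27ac of up to 54.2 only away from the boundaries. KRT19 had H3K4me3 of 4.68 at a boundary without H3K27ac, and EPCAM had neither mark in the gene. Of 9 stellate cell and fibroblast markers 1 had both marks at a shared boundary, RGS5, whose boundary window also takes in NUF2. Its H3K4me3 score there was 84.2. ACTA2 had H3K4me3 of 51.8 at a boundary without H3K27ac, and TAGLN had H3K27ac of 8.58 without H3K4me3. PDGFRA had H3K4me3 of up to 8.32 and PDGFRB H3K27ac of 6.06, both away from the boundaries, and LRAT, DES, THY1 and FAP had no H3K4me3 or H3K27ac summit in the gene. None of 5 endothelial markers had both marks at a boundary, but most were not free of summits. For PECAM1 the best boundary summit of H3K27ac scored 43.9 and the best in the gene 72.0. Its H3K4me3, up to 25.4, lay away from the boundaries. KDR carried H3K4me3 alone, scoring 22.8 next to a boundary. In TEK and VWF acetylation reached 10.8 and 24.0, away from the boundaries and with no H3K4me3. CDH5 was without summits of any mark.

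The share of genes with promoter marks was smaller among collagen genes than among protein-coding genes as a whole, and the gap was widest for H3K27ac. H3K4me3 lay at a boundary of 16 of the 44 collagen genes (36.4%), against 56.8% of all protein-coding genes. For H3K27ac the count was 6 (13.6%), against 54.1% of all protein-coding genes. Both promoter marks, at 1 boundary together, were found in 5 collagen genes (11.4%), against 47.4% of all protein-coding genes. H3K4me1 was found at a boundary of 3 collagen genes (6.82%), against 12.4%. No mark lay at a boundary of 26 collagen genes (59.1%), against 35.2%.

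Collagen genes are long, with a median of 144672 bp against 24171 bp for all protein-coding genes, so more of them could hold a summit by length alone. Even so, H3K4me3 was found in 23 of the 44 (52.3%), against 69.0% of all protein-coding genes, and H3K27ac in 15 (34.1%), against 64.5%. H3K4me1 went the other way, found in 20 (45.5%), against 40.4%. At a boundary the collagen shares were 36.4% for H3K4me3, 13.6% for H3K27ac and 11.4% for both. Of 6025 protein-coding genes in a middle length range the shares were 63.2%, 61.4% and 53.0%, all higher. These were between 40809 and 212457 bp long, from the lower to the upper quartile of collagen lengths. Their median length was 78171 bp, below that of the collagen genes. All 44 collagen genes, also those outside this range, were compared with them. In the gene 82.4% of those protein-coding genes had H3K4me3, 77.9% H3K27ac and 57.5% H3K4me1. Both promoter marks, at any distance from each other, were in 10 collagen genes (22.7%), against 61.2% of all protein-coding genes and 74.8% of those in this length range. No summit of any mark was found in 13 collagen genes (29.5%), against 25.7% of all protein-coding genes and 12.9% of those in this length range. The 13 were COL1A1, COL1A2, COL3A1, COL11A1, COL4A1, COL9A1, COL9A2, COL12A1, COL20A1, COL6A5, COL6A6, COL8A2 and COL15A1.

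**Figure D1:**
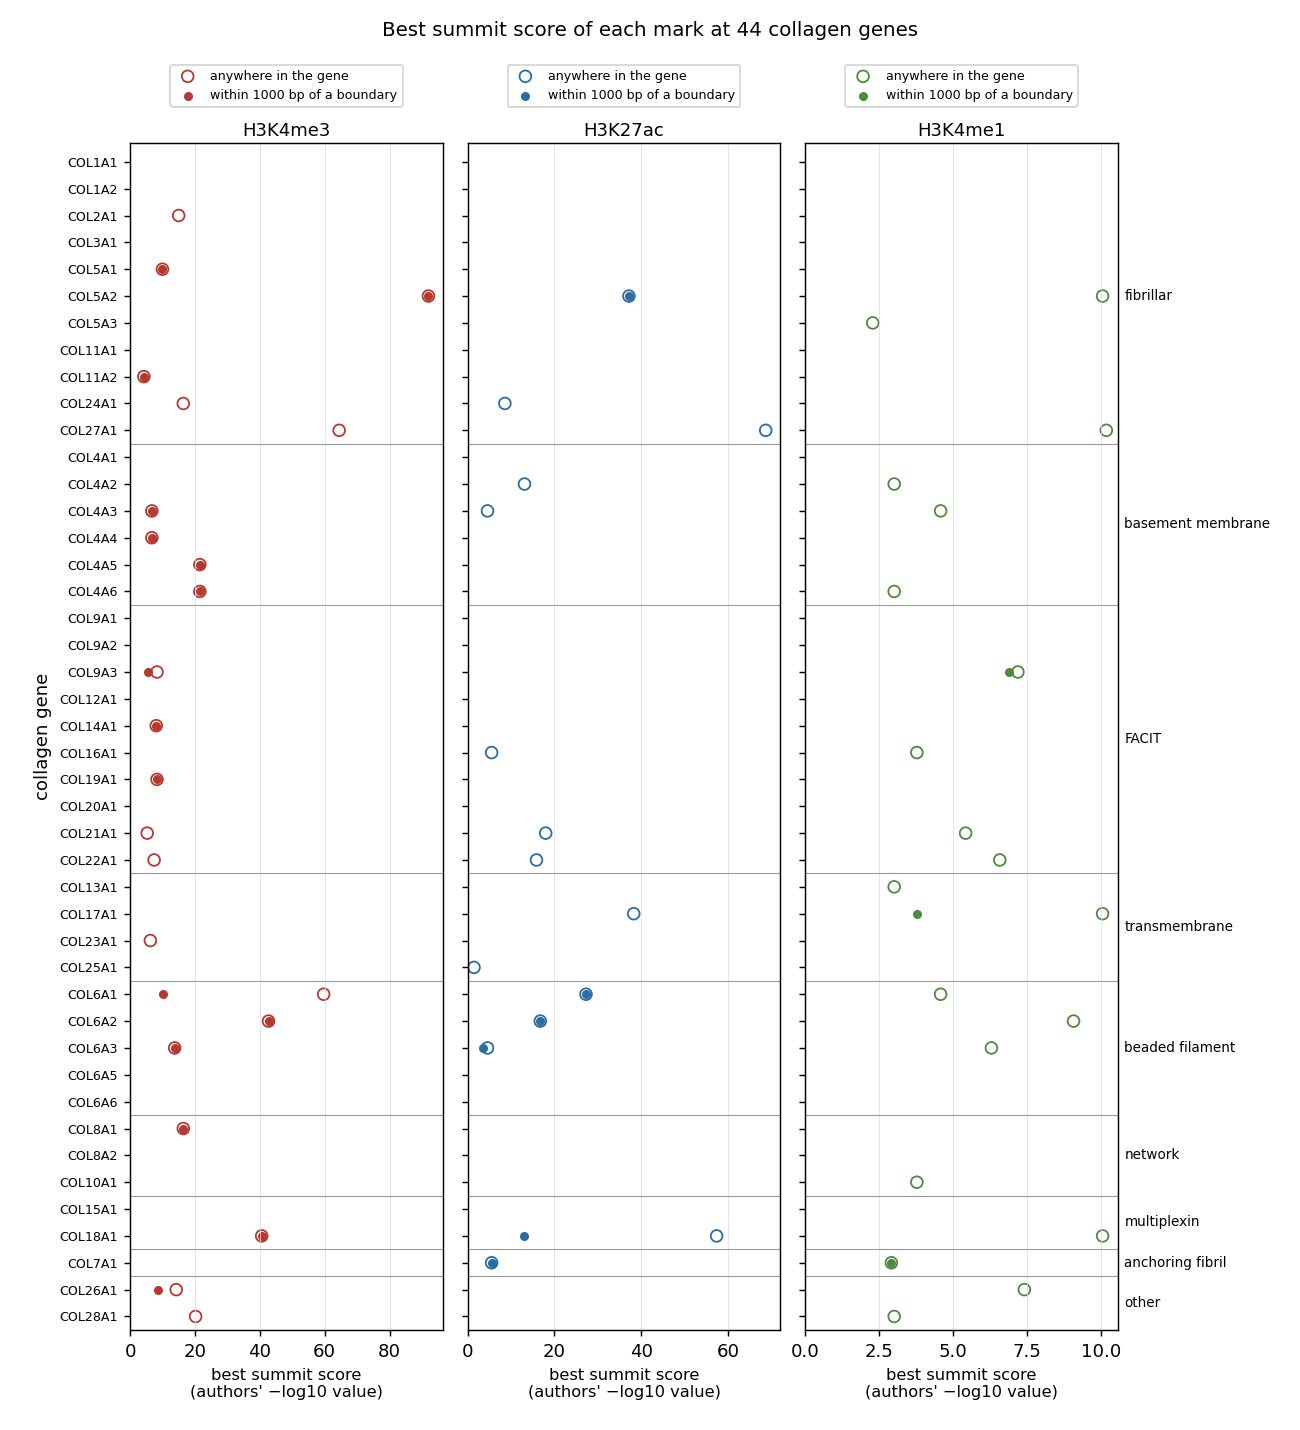
Best summit score (the authors' −log10 value, horizontal axes, a separate scale for each mark) of H3K4me3, H3K27ac and H3K4me1 at each of the 44 collagen genes, grouped by class. Filled points are summits within 1000 bp of a gene boundary, open circles the best summit anywhere in the gene, and a row with no point has no summit; filled H3K27ac points are found at 6 genes.

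Where a collagen gene carried H3K4me3 at a boundary, H3K27ac was mostly missing beside it. This was so in 11 of the 16 collagen genes (68.8%), against 1881 of the 11344 protein-coding genes with H3K4me3 (16.6%). The 11 are not independent, because COL4A3 and COL4A4 share a summit, and so do COL4A5 and COL4A6. COL11A2 was counted through the boundary away from its listed starts. The best H3K4me3 score of these 11 genes ran from 4.28 to 21.5 with a median of 8.32, and the median of the 1881 was 14. In the 5 collagen genes with both marks it ran from 10.1 to 91.9 with a median of 40.6, and over all 9463 such protein-coding genes the median was 57.2. The 91.9 was that of COL5A2, at a boundary shared with WDR75, and the next highest was 42.7, at COL6A2.

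The fibrillar class has 11 members. H3K4me3 was at a boundary of 3, both promoter marks were at the same boundary of 1, and 4 had no summit in the gene. COL1A1 and COL1A2, which encode the chains of type I collagen, the main collagen of bone, skin and scar, were among those 4, with COL3A1 of vessel walls and hollow organs and COL11A1 of cartilage. The summit of any mark nearest to a boundary was 6011 bp away for COL1A1 (chr17:50184101-50201631), 8888 bp for COL1A2 (chr7:94394895-94431227) and 101560 bp for COL11A1. COL3A1 had an H3K4me3 summit 1581 bp from a boundary, just outside the window. COL2A1, the chain of cartilage type II collagen, had 1 H3K4me3 summit of 15 in the gene, 4677 bp from its upper boundary, and no H3K27ac or H3K4me1.

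COL5A2 and COL27A1 were the fibrillar genes with most summits. COL5A2 encodes a chain of type V collagen, which sets the width of type I fibrils. In the RefSeq table it spans chr2:189031898-189441111 and ends 363 bp from WDR75, a gene of ribosome assembly. Its best H3K4me3 score, 91.9, and its boundary H3K27ac of 37.2 were at this shared boundary, 496 bp downstream and 188 bp upstream of the listed WDR75 start. From the COL5A2 boundary the same summits were 859 and 175 bp away, so each lies in the windows of both genes. With shared boundaries left out COL5A2 had no mark at a boundary. Away from the shared boundary the best H3K4me3 summit scored 24.3, 147497 bp from the lower boundary. H3K27ac of 7.76 was 396 bp and H3K4me1 of 3.39 was 505 bp from it. COL5A2 has no listed start, so whether this group lies at a start of the gene could not be told. In all the gene held 7 H3K4me3, 13 H3K27ac and 10 H3K4me1 summits, counting 1000 bp at each side.

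COL27A1, which encodes a fibrillar collagen of cartilage, had no summit within 1000 bp of its RefSeq boundaries (chr9:114154098-114312511). Its listed start lies inside the gene, however, and H3K27ac of 13.1 was 129 bp downstream of it. H3K4me3 of 64.4, above 90.7% of that list, was 1099 bp downstream, just past the window. A second group of acetylation lay far into the gene, where an H3K27ac summit of 68.7, above 95.9% of its list, had H3K4me1 of 6.06 at a distance of 36 bp and its nearest H3K4me3 118891 bp away. COL27A1 held 13 H3K27ac and 22 H3K4me1 summits, and 592 and 521 protein-coding genes held at least as many.

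The other fibrillar genes were weakly marked. COL5A1, the partner chain of COL5A2, had H3K4me3 of 10.0 at 356 bp upstream and 6.05 at 107 bp downstream of its listed start, and its nearest H3K27ac summit was 39447 bp from a boundary. COL11A2 had H3K4me3 of 4.28 at 920 bp from its lower boundary, the side away from its listed starts. At its upper boundary, 69 bp from the nuclear receptor gene RXRB, there was no summit. COL24A1 had H3K4me3 of 16.4 and H3K27ac of up to 8.58 inside the gene, and COL5A3 had H3K4me1 alone, at 2.28.

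The basement membrane class holds the 6 type IV genes, which lie head to head in pairs, so that the members of a pair share a boundary window and any summit in it. They are not independent of each other. H3K4me3 was at the boundary of 4 of the 6, H3K27ac and H3K4me1 at none. COL4A1 and COL4A2, the chains found in basement membranes of nearly all tissues, had no summit of any mark at their shared start on chromosome 13. The nearest H3K4me3 summits were 168970 bp away on the COL4A1 side and 254065 bp on the COL4A2 side, and the nearest H3K27ac summits 168326 and 149096 bp. The stretch between both starts is 126 bp long (chr13:110307158-110307283, plus strand, GRCh38.p14, RefSeq) and is shown with the promoters of the other type IV pairs to set the unmarked sequence beside the marked ones. Each other sequence is the 250 bases before a listed start, read on the gene's strand. Capitals mark a match, on either strand, to the CCAAT box, to the GC box GGGCGG, or to the TATA box motif TATAAA.
COL4A1 to COL4A2: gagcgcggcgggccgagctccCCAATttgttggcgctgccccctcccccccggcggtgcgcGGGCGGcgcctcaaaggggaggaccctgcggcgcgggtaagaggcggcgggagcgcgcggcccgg
COL4A3 (chr2:227164374-227164623, plus strand): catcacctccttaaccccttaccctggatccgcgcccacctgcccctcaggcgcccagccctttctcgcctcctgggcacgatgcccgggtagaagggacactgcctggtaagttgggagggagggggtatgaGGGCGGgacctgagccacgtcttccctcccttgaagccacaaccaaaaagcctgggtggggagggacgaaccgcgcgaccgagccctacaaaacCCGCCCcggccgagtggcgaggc
COL4A5 (chrX:108439588-108439837, plus strand): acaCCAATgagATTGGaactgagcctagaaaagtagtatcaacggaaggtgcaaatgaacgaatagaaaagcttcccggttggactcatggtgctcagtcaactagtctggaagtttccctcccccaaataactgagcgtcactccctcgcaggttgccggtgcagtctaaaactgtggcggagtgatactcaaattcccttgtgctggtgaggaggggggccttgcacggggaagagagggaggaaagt

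The unmarked COL4A1 to COL4A2 stretch held 20 CpG dinucleotides in 126 bases and was 80.2% G or C, with 1 CCAAT and 1 GGGCGG. The COL4A5 sequence held 8 CpG in 250 bases and was 51.2% G or C, and the COL4A3 sequence held 17 and was 66.4%. COL4A5 and COL4A6, whose listed starts are 379 bp apart, had H3K4me3 of 21.5 at 45 bp downstream of the COL4A5 start. Mutations of COL4A5 cause Alport syndrome, a kidney basement membrane disease. COL4A3 and COL4A4, of the same kidney network, had H3K4me3 of 6.73, 309 bp downstream of the COL4A4 start and 728 bp upstream of the COL4A3 start. No H3K27ac summit accompanied either, the nearest to a boundary being 347879 bp away for COL4A5 and 10065 bp for COL4A3.

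Chromosome 13 had few H3K4me1 summits, 98 or 0.113% of that list, while it held 1.29% of all H3K4me3 summits and 1.31% of all H3K27ac summits. None of its 338 protein-coding genes had H3K4me1 at a boundary, while 53.8% had H3K4me3, near the 56.8% of all protein-coding genes, and 45.6% had H3K27ac. COL4A2 did hold 6 H3K27ac summits in the part of the gene away from its start, with scores of up to 13.1, and 1 H3K4me1 summit of 3.01.

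Of the 10 FACIT genes, 3 had H3K4me3 at a boundary and 4 had no summit in the gene, and H3K27ac was at no boundary. The scores were low. COL14A1, which binds fibrils of tendon and skin, had H3K4me3 of 8.09 at 629 bp from a boundary. COL19A1 had 8.32 at 687 bp downstream of its listed start, and COL9A3, a chain of cartilage type IX collagen, had 5.69 at 136 bp from its lower boundary. COL9A3 was also 1 of 3 collagen genes with H3K4me1 at a boundary, at up to 6.90, and the gene, 24947 bp long, held 11 H3K4me1 and 5 H3K4me3 summits with no H3K27ac, counting 1000 bp at each side. COL9A1 and COL9A2, the other type IX chains, and COL12A1 had no summit. The COL19A1 promoter is shown as that of the FACIT gene with the highest boundary H3K4me3. It has 6 CpG and none of the motifs searched.
COL19A1 (chr6:69866306-69866555, plus strand): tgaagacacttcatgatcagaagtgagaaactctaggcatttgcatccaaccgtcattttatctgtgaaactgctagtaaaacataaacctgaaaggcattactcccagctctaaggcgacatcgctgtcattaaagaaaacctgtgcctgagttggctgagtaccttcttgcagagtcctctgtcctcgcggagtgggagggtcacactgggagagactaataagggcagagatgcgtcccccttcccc

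Acetylation in FACIT genes lay inside them. COL21A1 held 6 H3K27ac summits of up to 18 and H3K4me3 of 5.30 at 541 bp downstream of an inner listed start. COL22A1 held 2 H3K27ac summits of up to 15.9, with H3K4me3 of up to 7.43, and COL16A1 held 1 of 5.52.

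None of the 4 transmembrane genes had H3K4me3 or H3K27ac at a boundary, and each had at least 1 summit inside. COL17A1 (chr10:104031286-104085880), which encodes the hemidesmosome collagen that holds epithelial cells to their basement membrane, was the most marked. It held 6 H3K27ac and 7 H3K4me1 summits and no H3K4me3, and its best H3K27ac score of 38.3, above 87% of that list, was 35975 bp from the boundary at its start. H3K4me1 of 7.21 was 641 bp from this summit, and the nearest H3K4me3 was 68389 bp away. This summit is 1719 bp from the microRNA gene MIR936 and so was not counted as distal below. At the start itself there was only H3K4me1, of 3.77, at 92 bp upstream. The promoter is shown because it lacks promoter marks in a gene with internal acetylation, and it has 1 CpG, 1 TATAAA and 1 CCAAT in 250 bases.
COL17A1 (chr10:104085881-104086130, minus strand): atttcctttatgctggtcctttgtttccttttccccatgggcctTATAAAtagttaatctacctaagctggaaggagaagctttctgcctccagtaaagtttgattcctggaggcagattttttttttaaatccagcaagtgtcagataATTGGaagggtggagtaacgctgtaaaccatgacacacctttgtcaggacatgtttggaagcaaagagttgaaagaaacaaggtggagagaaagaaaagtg

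The other transmembrane genes held little. COL13A1, a collagen of neuromuscular junctions, had 2 H3K4me1 summits of at most 3.01. COL23A1 had 1 H3K4me3 summit of 6.28, and COL25A1, known from neurons and amyloid plaques, had 1 H3K27ac summit of 1.46, close to the lowest score in the list, 1.3.

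**Figure D2:**
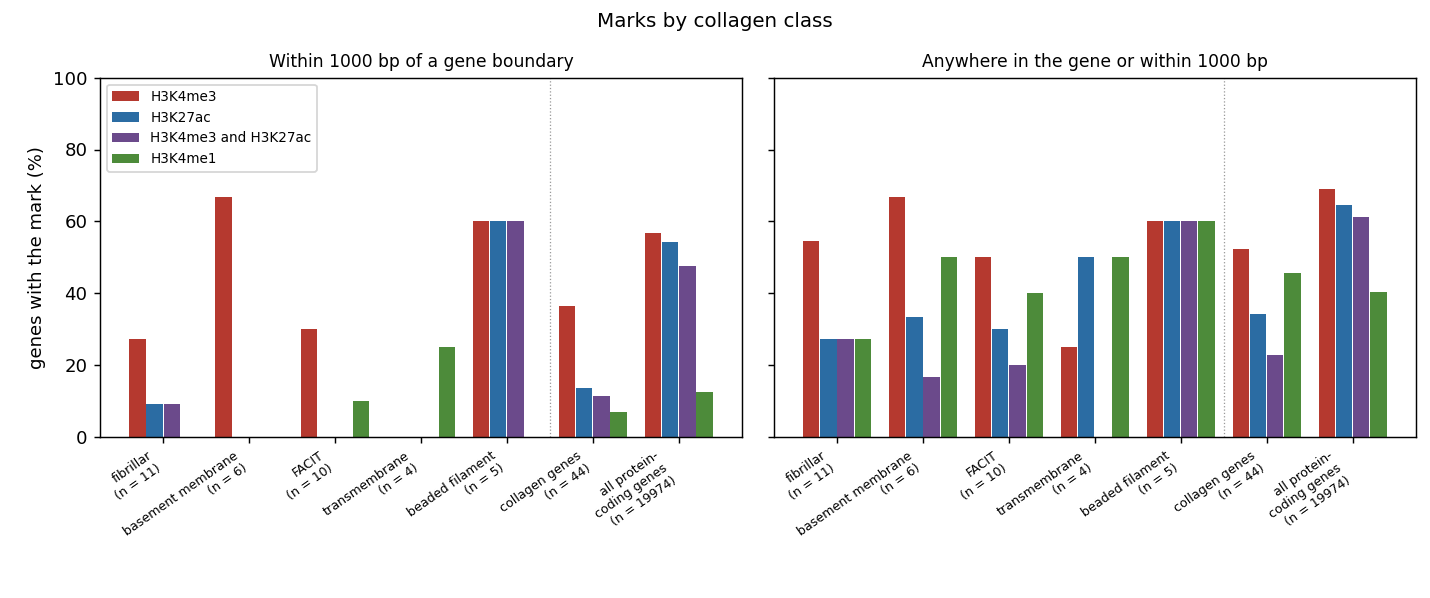
Share of genes (%, vertical axis) with each mark in 5 collagen classes, in all 44 collagen genes and in all 19974 protein-coding genes, at a boundary (left) and anywhere in the gene (right). Basement membrane genes had H3K4me3 at boundaries in 66.7% and the pair in none, beaded filament genes had the pair in 3 of 5, and transmembrane genes had neither promoter mark at a boundary.

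The beaded filament class, type VI collagen, was the one where both promoter marks met most often, at 3 of 5 genes. COL6A1, COL6A2 and COL6A3 encode the chains of the usual type VI microfibrils around cells, and COL6A5 and COL6A6, which encode alternative chains, had no summit. COL6A1 (chr21:45981770-46005048) had H3K27ac of 20.6 and 27.3 on either side of its lower boundary, H3K4me3 of 10.1 at 478 bp outside it, and H3K4me3 of 59.7 at 1116 bp inside it. COL6A2 (chr21:46098112-46132848) had H3K4me3 of 42.7 at 136 bp and H3K27ac of 16.7 at 227 bp downstream of its start. Long noncoding RNA genes lay beside both lower boundaries, LOC105372841 at 204 bp from that of COL6A1 and COL6A2-DT at 467 bp from that of COL6A2. COL6A3 (chr2:237324018-237414164) was weaker, with H3K4me3 of 13.8 at 474 bp and H3K27ac of 3.49 at 352 bp downstream. A score of at least 10 for both marks left COL6A1 and COL6A2 and took away COL6A3.
COL6A2 (chr21:46097862-46098111, plus strand): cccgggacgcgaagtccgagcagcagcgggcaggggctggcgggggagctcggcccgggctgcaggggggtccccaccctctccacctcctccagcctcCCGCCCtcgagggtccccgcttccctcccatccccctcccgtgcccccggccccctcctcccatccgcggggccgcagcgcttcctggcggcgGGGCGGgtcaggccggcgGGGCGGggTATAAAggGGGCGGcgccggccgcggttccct
COL6A3 (chr2:237414165-237414414, minus strand): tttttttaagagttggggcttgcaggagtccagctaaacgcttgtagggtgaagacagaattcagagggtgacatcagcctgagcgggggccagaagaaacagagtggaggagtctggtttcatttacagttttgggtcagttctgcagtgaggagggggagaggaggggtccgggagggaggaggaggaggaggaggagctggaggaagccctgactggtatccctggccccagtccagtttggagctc

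These promoters are shown because they carry both marks and differ in base composition. The COL6A2 promoter had 28 CpG and was 79.6% G or C, with TATAAA beginning 32 bases before the start and GGGCGG at 4 places. The COL6A3 promoter had 3 CpG, was 56.0% G or C and held none of the motifs.

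COL18A1 (chr21:45405165-45513720) held more H3K27ac and H3K4me1 summits than any other collagen gene. It encodes type XVIII collagen of basement membranes, whose end fragment is endostatin. It held 28 H3K27ac, 27 H3K4me1 and 6 H3K4me3 summits, and 116 of all protein-coding genes held at least 28 H3K27ac summits. Promoter marks were found at both of its listed starts. The outer start had H3K4me3 of 40.6 at 266 bp and H3K27ac of 13.1 at 168 bp downstream. The inner start had H3K4me3 of 18.9 at 562 bp and H3K27ac of 20.6 at 151 bp downstream, and also H3K4me1 of 3.01 upstream. The highest H3K27ac score in the gene, 57.4, lay beyond the inner start, 64952 bp from the lower boundary, with H3K4me1 of 4.58 at 17 bp and the nearest H3K4me3 11020 bp away. Both promoters are shown as alternative starts of the same gene.
COL18A1 outer start (chr21:45404915-45405164, plus strand): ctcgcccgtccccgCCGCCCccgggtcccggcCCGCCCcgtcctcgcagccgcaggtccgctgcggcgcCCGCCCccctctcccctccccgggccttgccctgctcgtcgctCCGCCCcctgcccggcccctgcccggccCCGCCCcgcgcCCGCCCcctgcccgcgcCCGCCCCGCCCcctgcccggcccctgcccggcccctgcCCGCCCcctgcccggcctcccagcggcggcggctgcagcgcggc
COL18A1 inner start (chr21:45455272-45455521, plus strand): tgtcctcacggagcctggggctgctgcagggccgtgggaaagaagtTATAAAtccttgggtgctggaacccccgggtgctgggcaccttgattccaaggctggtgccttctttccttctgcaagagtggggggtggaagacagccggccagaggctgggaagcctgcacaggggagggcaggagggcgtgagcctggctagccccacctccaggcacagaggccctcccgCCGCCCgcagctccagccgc

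The outer promoter had 37 CpG, was 88.4% G or C and held GGGCGG, all on the minus strand, at 9 places. The inner one had 9 CpG and was 66.4% G or C, with GGGCGG once and TATAAA beginning 204 bases before the start. COL15A1, the other multiplexin gene and the nearest relative of COL18A1, had no summit, and its nearest H3K4me3 was 33885 bp from a boundary.

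The remaining members were marked in part. COL7A1, which encodes the anchoring fibrils of skin, had H3K27ac of 5.52 and H3K4me1 of 2.91 at its lower boundary. That side is shared with UCN2 and PFKFB4 and lies away from the listed COL7A1 start, which had no summit of any mark within 1000 bp. COL8A1, a network collagen of vessels and cornea, had H3K4me3 of 16.4 at 576 bp from a boundary next to the long noncoding RNA gene LOC124909401, without H3K27ac. COL10A1 of growth-plate cartilage had H3K4me1 alone, of 3.77, at 4 bp from an inner listed start, and COL8A2 had no summit. COL26A1 had H3K4me3 of 8.51 at 257 bp downstream of its start and 14.2 at 1123 bp downstream, just past the window. COL28A1 had H3K4me3 of 20.2 at 86521 bp from its lower boundary. Neither had H3K27ac.

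**Figure D3:**
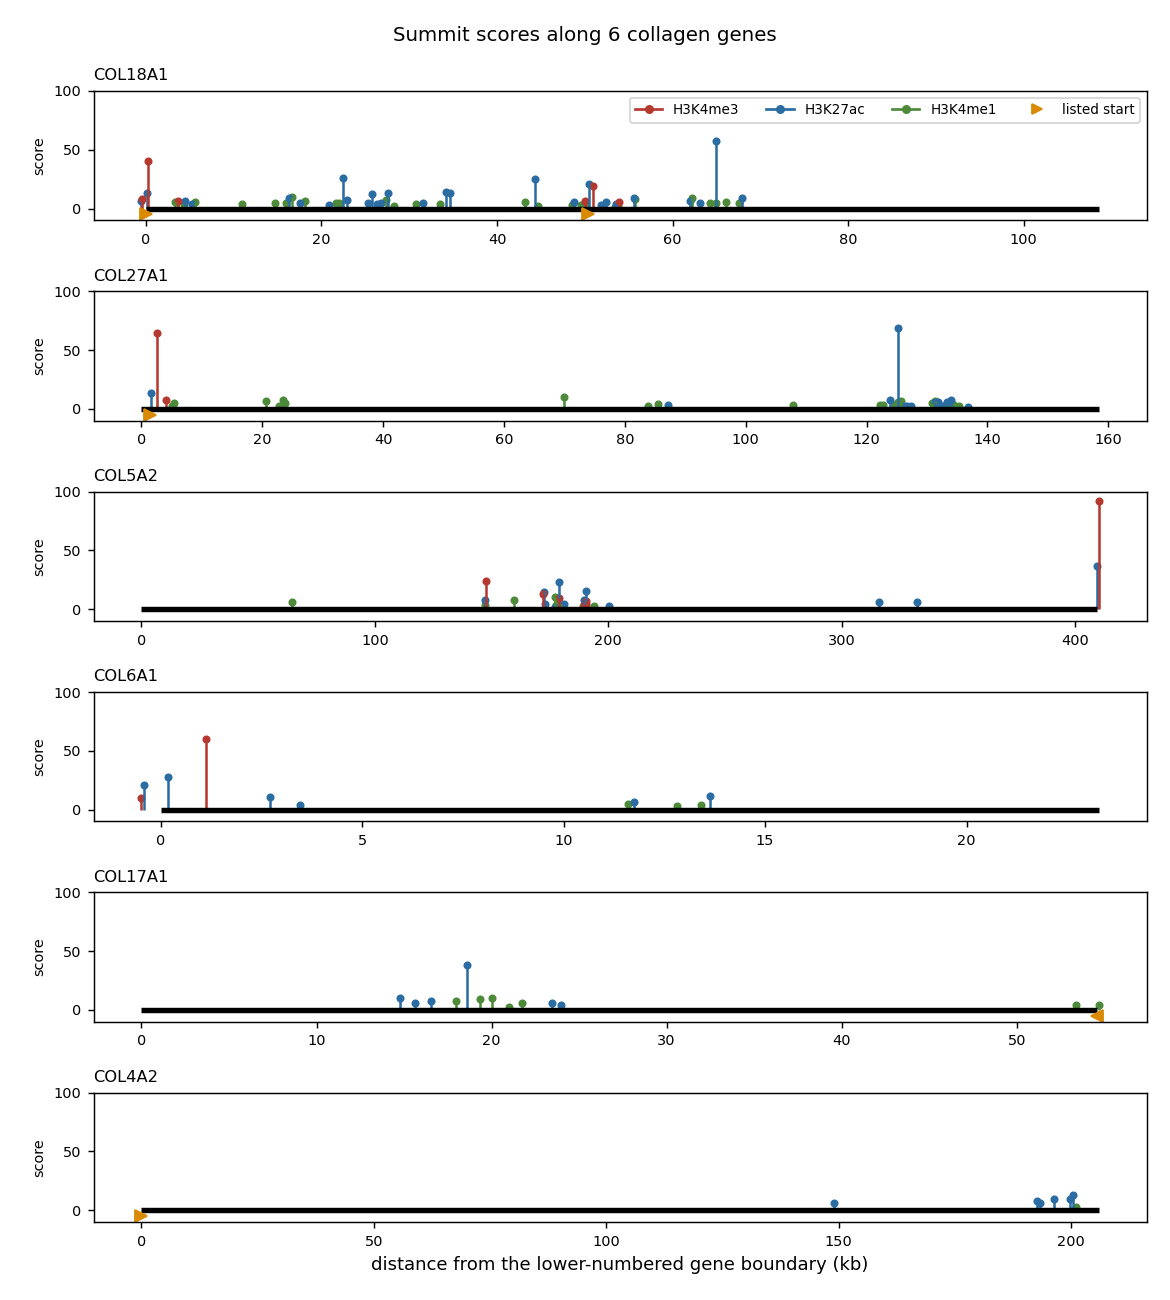
Summit scores (vertical axis, the authors' −log10 value) along COL18A1, COL27A1, COL5A2, COL6A1, COL17A1 and COL4A2, by distance from the lower-numbered gene boundary in kb; the black bar is the gene, each stem a summit, and arrowheads are listed starts with their direction. COL18A1 had marks at both starts, COL17A1 and COL4A2 had H3K27ac only away from theirs, and the 91.9 H3K4me3 summit of COL5A2 stood at the end next to WDR75.

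Summits in collagen genes were concentrated in a few of them. COL18A1, COL27A1 and COL5A2 were chosen after their values were seen. Counting 1000 bp at each side, they held 54 of the 98 H3K27ac summits in collagen genes (55.1%). They held 59 of the 109 H3K4me1 summits (54.1%), but 15 of the 47 H3K4me3 summits (31.9%). Densities counted only summits between the boundaries, without these sides, which were 38 H3K4me3, 93 H3K27ac and 106 H3K4me1 in collagen genes. Pooled over length, collagen genes had 0.546 H3K4me3, 1.34 H3K27ac and 1.52 H3K4me1 summits per 100 kb. All protein-coding genes had 2.43, 3.15 and 4.09. Without those 3 genes the collagen values were 0.398, 0.653 and 0.748. H3K27ac density was 1.71 per 100 kb in fibrillar, 0.559 in basement membrane, 0.561 in FACIT, 0.661 in transmembrane and 2.68 in beaded filament genes. H3K4me3 density was 0.672, 0.160, 0.624, 0.0945 and 0.670 in the same classes. In these 5 classes both densities lay below those of all protein-coding genes, 2.43 for H3K4me3 and 3.15 for H3K27ac. The multiplexin genes, through COL18A1, had 11.5 H3K27ac summits per 100 kb and COL7A1 had 9.6, both above 3.15. The COL7A1 value rests on 3 summits in a short gene, all within 1541 bp of the boundary shared with UCN2 and PFKFB4. The median collagen gene had 0 H3K4me3, 0 H3K27ac and 0 H3K4me1 summits per 100 kb. Over all protein-coding genes the medians were 2.16 for H3K4me3, 1.81 for H3K27ac and 0 for H3K4me1, so that for H3K4me1 the medians were the same. Over protein-coding genes from 40809 to 212457 bp long they were 1.92, 2.00 and 1.42, all above the collagen medians.

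Starts could be placed for 32 of the 44 collagen genes, those with a promoter in the RefSeq table on GRCh38.p14. The other 12 are COL1A1, COL1A2, COL2A1, COL3A1, COL5A2, COL9A3, COL14A1, COL20A1, COL22A1, COL6A1, COL6A5 and COL8A1. H3K4me3 was within 1000 bp of a listed start in 11 of the 32 (34.4%), against 62.0% of the 15812 protein-coding genes with one. H3K27ac was there in 4 (12.5%), against 57.6%, and both marks at the same start in 3 (9.38%), against 53.1%. H3K4me1 was at a listed start of 3 (9.38%), against 7.6%. The 3 with both marks were COL6A2, COL6A3 and COL18A1. The low share of collagen genes with promoter marks was therefore seen from starts as well as from boundaries.

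**Figure D4:**
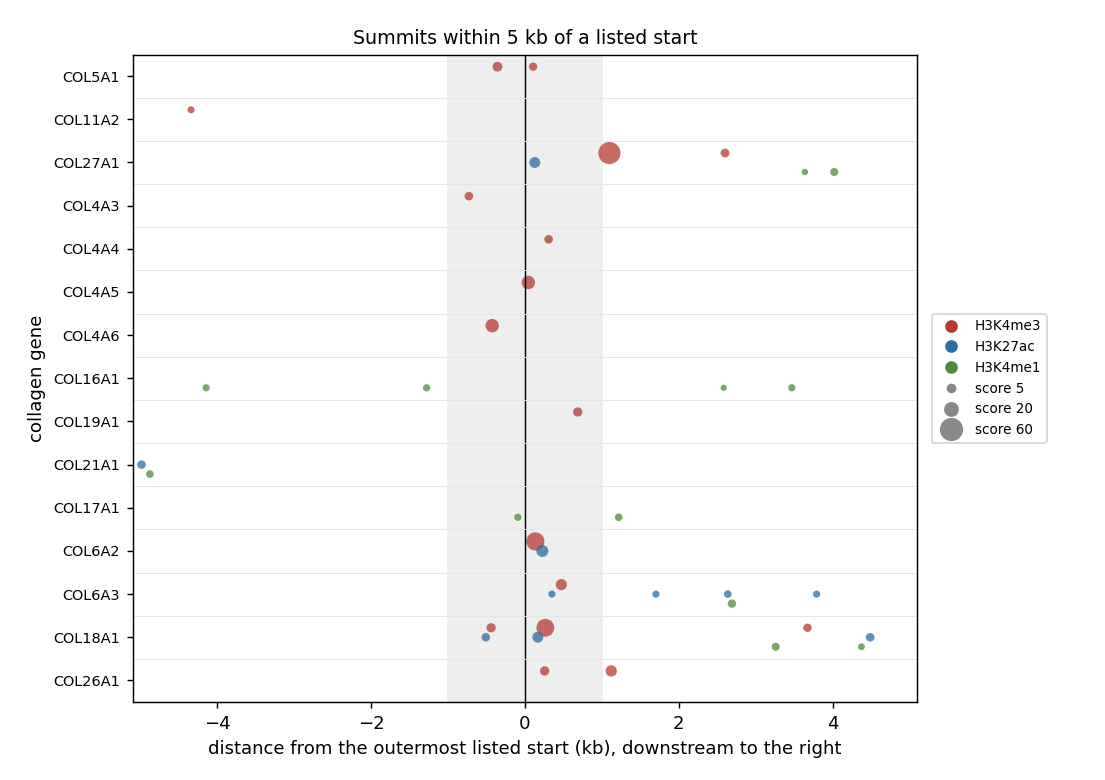
Summits within 5 kb of the outermost listed start of the 15 collagen genes that have any there, by distance from the start in kb (downstream to the right); colour gives the mark, point area grows with the score, and the grey band is 1 kb to each side. H3K4me3 and H3K27ac fall together in the band at COL6A2, COL6A3 and COL18A1, and the H3K4me3 summit of COL27A1 lies just outside it.

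At the median, collagen promoters without H3K4me3 were richer in CpG than other promoters without it. The ratio of observed to expected CpG in the 250 bases before a start, which is near 1 where CpG is not depleted, had a median of 0.544 over 44 listed collagen starts, against 0.711 over 22132 protein-coding starts. At the 31 collagen starts without H3K4me3 the median was 0.482, against 0.345 at all protein-coding starts without it. At the 13 with H3K4me3 it was 0.621, against 0.825 at all those with it. Neighbouring starts of a gene overlap in sequence, so starts are not independent.

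TATAAA on either strand was found in the 250 bases before 8 of the 44 collagen starts (18.2%), against 9.0% of protein-coding starts. CCAAT was before 12 (27.3%), against 32.7%, and GGGCGG before 24 (54.5%), against 53.7%. Matches of different motifs did not overlap in the sequences shown. GGGCGG was before 17 of the 31 collagen starts without H3K4me3 (54.8%), against 33.3% of all protein-coding starts without it. Such matches describe the sequence only.

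Distal H3K27ac sites, summits over 2500 bp from every gene boundary, were each assigned by distance to a protein-coding gene, the one whose boundary was nearest, which need not be the gene they act on. Of 43996 such sites 104 fell to collagen genes. H3K4me1 lay within 1000 bp of 59 of them (56.7%), against 65.9% of all, and H3K4me3 of 23 (22.1%), against 29.0%. They lay inside the gene in 52 cases (50.0%), against 49.3%, and their median score was 6.81, against 6.72. The share of genes with a distal site was 20 of 44 (45.5%), against 39.4% of all protein-coding genes, and with a site that has H3K4me1 16 (36.4%), against 29.9%. Among protein-coding genes from 40809 to 212457 bp long 56.4% had a distal site and 43.9% had one with H3K4me1.

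COL18A1, COL5A2, COL6A2 and COL21A1 had 47 of the 104 sites. COL18A1 had 14, of which 7 were inside it, and the highest, of 99.8 and above 99% of the list, was 40670 bp outside. The H3K27ac summit of 57.4 inside COL18A1 was not among the 14. It was 43603 bp from the nearest COL18A1 boundary, and a boundary of another protein-coding gene was nearer. COL6A2 had 12, and 9 of them lay within 11845 bp in the interval between COL6A1 and COL6A2 (chr21:46053245-46065090), with scores of 2.77 to 67.2 and H3K4me1 beside 4. COL5A2 had 12, all inside, and COL21A1 had 9. As COL5A2 has no listed start, whether any of its sites lies near a start is unknown. COL27A1 had 8, of which 7 were in a run of 10207 bp with H3K4me1 beside each. Fibrillar genes had 30 sites in all, basement membrane genes 2, FACIT genes 23, transmembrane genes 4 and beaded filament genes 23, and of these 19, 1, 12, 0 and 13 had H3K4me1.

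Some genes with no summit of their own were the nearest to strong distal sites. COL1A2 was nearest to the highest-scoring distal site of all collagen genes, of 116 and above 99.5% of the list, 93500 bp from its boundary. This site had H3K4me1 of 9.30 at 9 bp and H3K4me3 of 5.43 at 96 bp. COL12A1 was nearest to 6 sites of up to 49.5, but the closest of them was 452406 bp away, and COL3A1 to 2 sites of at most 3.68 at 187423 bp or more. COL1A1 had none. COL8A1, with H3K4me3 and no H3K27ac at its boundary, was nearest to 7 sites in 2 groups, of up to 31.4, from 116019 to 132687 bp away, and H3K4me1 was beside 6.

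**Figure D5:**
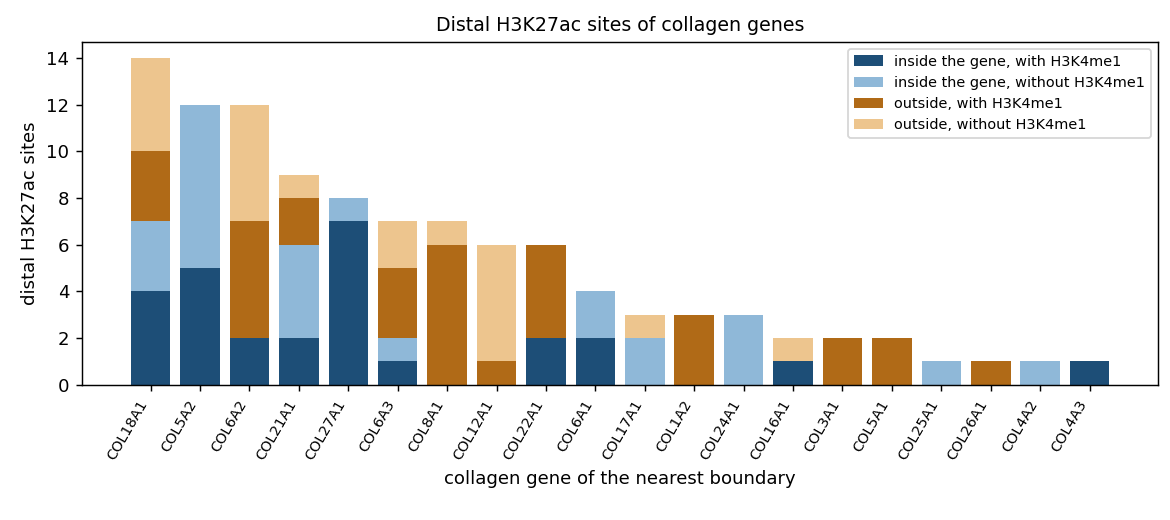
Number of distal H3K27ac sites (vertical axis) given to each of the 20 collagen genes that had any, split by position inside or outside the gene and by H3K4me1 within 1000 bp. COL18A1 had 14, COL5A2 and COL6A2 12 each, and the sites of COL8A1 and COL1A2 all lay outside the gene.

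The genes that fold and modify collagen in the cell had a larger share with both promoter marks than the collagens. Of 18 genes in this list, 11 had both promoter marks at the same boundary (61.1%), against 47.4% of all protein-coding genes, and their median boundary H3K4me3 score was 56.8, against 52.1. P4HB and P4HA2, subunits of the prolyl hydroxylases that stabilise the helix, had H3K4me3 of 109 and 28.2 with H3K27ac of 63.8 and 17.9. P4HA3 and COLGALT2 had no H3K4me3 in the gene, and P3H2 had most distal sites, 23. Many of these enzymes also serve other proteins.

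In the lists of later steps and of receptors, a smaller share of genes had both marks at the same boundary than in the list of folding genes. In the list of procollagen cleavage and crosslinking, 8 of 13 had H3K4me3 at a boundary (61.5%), near the 56.8% of all protein-coding genes, and 3 had both marks (23.1%), against 47.4%. The procollagen protease gene BMP1, which shares a boundary with SFTPC, had H3K4me3 of 64.4 and 8 distal sites, and PCOLCE2, an enhancer of that protease, had 50.1. ADAMTS2 and ADAMTS14, which remove the other end of procollagen, had no H3K4me3. Among 10 collagen receptor genes 2 had both marks at the same boundary (20%, against 47.4% of all protein-coding genes). These were ITGA1 (with PELO at that boundary) and ITGA2 (with MOCS2), integrin chains that bind collagen. Anywhere in the gene, at any distance from each other, both marks were in 6 of the 10 receptor genes. That was near the 61.2% of all protein-coding genes, so the low receptor share was seen at boundaries only. In the cleavage and crosslinking list 5 of 13 had both marks in the gene, still below 61.2%. DDR2 and LAIR1 had no H3K4me3, and ITGA11, at a boundary shared with FEM1B, had 21 distal sites.

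Laminins and other partners of type IV collagen had both marks at the same boundary in 8 of 16 cases (50.0%), near the 47.4% of all protein-coding genes. The type IV genes had them in 0 of 6, which are 3 shared start windows. LAMA3 and LAMA4, laminin chains, had H3K4me3 of 36.8 and 55.4, LAMA3 had 9 distal sites, and LAMA1 and LAMC3 had no H3K4me3. Proteoglycans and glycoproteins of fibrils had the pair in 2 of 12 (16.7%, against 47.4% of all protein-coding genes), FN1 and THBS1 (with LOC124903470), and FN1, the fibronectin gene, had 44 distal sites. DCN and BGN (with HAUS7), small proteoglycans that bind type I fibrils, had no H3K4me3. In the degradation list 4 of 11 had the pair (36.4%, against 47.4%). Anywhere in the gene both marks were in 12 of 16 type IV partners, 1 of 6 type IV genes and 6 of 11 degradation genes. For the proteoglycans and glycoproteins of fibrils the count stayed at 2 of 12. Of all protein-coding genes 61.2% had both marks in the gene. CTSB, a lysosomal protease gene, and TIMP1, a metalloprotease inhibitor gene, had H3K4me3 of 59.7 and 74.6, TIMP3 had 27 distal sites, and the collagenase genes MMP1 and MMP8 had no H3K4me3.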

How the data were processed

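For each mark the authors deposited peak summits from 1 library, per the labels, with a −log10 score per summit. Whether it stands for p-values or q-values is unstated. The submitters' processing notes name Bowtie, Picard, deepTools, MACS2 and hg38, without versions. Settings and the control used were not stated. A MACS2 score grows with depth and falls with background, so scores were ranked only within a list. Summits on chromosome Y and unplaced contigs were left out (185 for H3K4me3, 273 for H3K27ac, 61 for H3K4me1).

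Gene limits and promoter sequences came from NCBI RefSeq on GRCh38.p14, which has the coordinates of hg38. The gene table gives no strand, so either boundary counted, and listed starts were used for the 32 collagen genes with a promoter entry. Motifs were searched on both strands. Windows, distances and lists are as stated with the results, and the 109 list and marker symbols all matched. A hepatocyte marker gene is not reported here. Members, classes and lists were chosen with earlier results of these data known. All members may be named; from each pathway list the first 2 with both marks, the first 2 without H3K4me3 in the gene and the one with most distal sites were named. Marker genes were named outside this rule. The rule for printed promoters took the gene with the highest boundary H3K4me3 per class (COL4A5, COL19A1); the other sequences were chosen after their values were seen. Alternatives were windows of 500 and 2500 bp, a score of at least 10, whole genes, other distances and shared boundaries left out. Python 3.11.15, numpy and pandas were used, and the counting code was tested on simulated data with planted summits.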

Additional observations from a re-analysis of the deposited data

How the results depend on the processing

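For H3K4me3, H3K27ac and both together, the collagen share stayed below that of all protein-coding genes at 500 and 2500 bp, with a score of at least 10 and over the whole gene. For H3K4me1 it did not, being below at boundaries but above over the whole gene. At listed starts it was near that of all protein-coding genes, 3 of 32 (9.38%) against 7.6%. Over the whole gene the collagen share of 45.5% was, however, below the 57.5% of protein-coding genes of like length. H3K4me3 at a boundary was found in 8 collagen genes at 500 bp (40.6% of all protein-coding genes) and in 9 with a score of at least 10 (51.7%), against 16 (56.8%) as reported, and at 2500 bp in 17 (64.7%). Counting the whole gene raised H3K27ac to 15 collagen genes (64.5% of all protein-coding genes), H3K4me1 to 20 (40.4%) and both promoter marks, at any distance, to 10 (61.2%). H3K4me1 at a boundary went to 5 genes at 2500 bp (24.9%) and to 0 with a score of at least 10 (1.13%). Both promoter marks at the same boundary were counted in 4 or 5 genes under every other alternative; COL6A3 was lost at a score of at least 10, and COL5A2 at 500 bp and when shared boundaries were left out, an alternative that was also run, after seeing the data, for boundaries shared with genes other than collagens (4 genes). With all shared boundaries left out the type IV genes had no H3K4me3. Distal sites fell to 34 with an H3K27ac score of at least 10 and to 52 inside the gene, and those with H3K4me1 to 24 and 27. The median densities stayed at 0 with a score of at least 10, and also when the 1000 bp inside each boundary were left out. No paired analysis was possible because each mark has 1 library. Depth is unknown, so a mark below the peak threshold cannot be told from an absent one.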
